A study of Mus musculus with 18 samples.

Results

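The genes of transforming growth factor-β (TGF-β) and bone morphogenetic protein (BMP) signaling were examined in a list of open chromatin regions from liver macrophages (LMs). The 39 genes were sorted into 3 layers by what they encode, with 19 ligands, 12 receptors and coreceptors, and 8 Smads. A region was counted for a gene when its midpoint lay in the gene body or within 10 kb of either end, in mm9 coordinates with the GENCODE vM1 annotation. By this rule the genes held 218 of the 69499 regions, or 0.314%, and because 9 regions lay in the windows of 2 neighboring genes there were 227 pairs of a region and a gene. All 39 genes were found in the annotation, and 37 of them had at least 1 region.

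Accessible DNA had been cut and tagged with Tn5 transposase (fast-ATAC-Seq) in 18 libraries of 50000 cells each from male C57BL/6J mice fed a high-fat, high-sucrose diet for 4 weeks. The genotypes were Control, ReverbhDKO, with both REV-ERB genes deleted in hepatocytes, and Reverb/ScaphTKO, with Scap, a carrier protein needed for SREBP activation, deleted there as well. Each genotype was sampled in triplicate at both ZT10 and ZT22, that is, 10 and 22 hours after lights on. All of the mice carried floxed alleles and received, at 8 weeks of age by the study's methods, adeno-associated virus with the hepatocyte promoter TBG, carrying Cre for the deletions and GFP for controls, so the macrophages themselves were not the target of any deletion. The list joins all libraries and holds only a chromosome, a start, and an end, so depth is unknown, no value belongs to a replicate, genotype, or time, and no such difference could be tested. Each count below therefore describes 1 pooled list and does not say in which libraries a region was open.

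TGF-β family ligands are secreted dimers that bring together type II and type I receptor kinases, and the type I kinase then phosphorylates receptor Smads. TGF-βs and activins signal mainly through Smad2 and Smad3 and BMPs through Smad1, Smad5, and Smad9, and both groups of Smads enter the nucleus with the common partner Smad4. Smad6 and Smad7 are inhibitory Smads whose own genes are induced by the pathway. In the liver, the TGF-βs are known for fibrosis, BMP6 from endothelial cells for the control of hepcidin and iron, and BMP9 and BMP10 acting through ALK1 and Smad4 for the identity of resident Kupffer cells.

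The open regions at the starts of Smad6 and Smad7, the inhibitory Smads, were the only ones of the 218 that held GTCTAGAC, the palindrome to which Smad3 and Smad4 bind. The match at Smad6 lay across the first base of the gene, with its center at -0.5 bp, and the match at Smad7 was centered at -349.5 bp. The palindrome was in 134 of 69362 regions on chromosomes 1 to 19, X, and Y, or 0.193%, and in 2 of the 218 (0.917%). Among all 22367 protein-coding genes, 39 (0.174%) had it in a region within 1 kb of an own start. The Smad6 sequence is shown because it carries this match, and it was chosen after the matches were seen. It is the plus strand of chr9:63869863-63870025, from the palindrome to the end of the region, while the gene is on the minus strand. Capitals mark the palindrome.
Smad6 start: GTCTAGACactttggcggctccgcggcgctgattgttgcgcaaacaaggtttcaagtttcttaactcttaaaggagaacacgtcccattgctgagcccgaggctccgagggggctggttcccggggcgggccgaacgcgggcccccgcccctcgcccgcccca

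Away from starts, that is, more than 1 kb from a start of any coding gene, the 39 genes had 152 regions. Of these, 19 held a palindrome, an AP-1 site (TGAGTCA or TGACTCA), or the PU.1 site GAGGAAGT, on either strand, and none held the palindrome. AP-1 was in 12 (7.89%), beside 7.92% of all regions away from starts. PU.1 was in 9 (5.92%), beside 4.40%. AP-1 and PU.1 are factors that bind many macrophage enhancers. The 5 widest of at most 300 bp are printed as examples of regions outside promoters that carry these letters. All are plus strands of mm9, with the AP-1 and PU.1 letters in capitals. They lie in a later intron of Smad6 (chr9:63808276-63808553), 2 places in introns annotated as first introns of Smad3 (chr9:63554266-63554532 and chr9:63526054-63526283), downstream of Eng (chr2:32545007-32545259), and upstream of Gdf15 (chr8:73158165-73158398). The Eng region holds AP-1 at 2 places and lies inside the neighboring gene Fpgs, and the second Smad3 region holds both AP-1 and PU.1.
Smad6 intron, PU.1: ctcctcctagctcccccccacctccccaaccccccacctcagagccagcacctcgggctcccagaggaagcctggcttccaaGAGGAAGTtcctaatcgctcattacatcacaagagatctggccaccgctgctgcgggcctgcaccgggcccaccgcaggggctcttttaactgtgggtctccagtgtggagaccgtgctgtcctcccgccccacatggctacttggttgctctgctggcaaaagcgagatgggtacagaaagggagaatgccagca
Smad3 intron, 51.4 kb into the gene, AP-1: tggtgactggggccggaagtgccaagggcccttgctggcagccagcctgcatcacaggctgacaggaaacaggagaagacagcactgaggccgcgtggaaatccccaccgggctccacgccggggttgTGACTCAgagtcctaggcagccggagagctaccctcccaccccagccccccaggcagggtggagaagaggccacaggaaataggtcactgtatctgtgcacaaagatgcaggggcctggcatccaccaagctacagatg
Smad3 intron, 79.6 kb into the gene, AP-1 and PU.1: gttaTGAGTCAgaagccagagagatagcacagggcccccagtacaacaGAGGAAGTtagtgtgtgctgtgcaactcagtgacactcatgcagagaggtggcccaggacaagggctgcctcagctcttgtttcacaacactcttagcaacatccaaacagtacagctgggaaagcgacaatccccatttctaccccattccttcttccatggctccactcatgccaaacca
Eng downstream, AP-1: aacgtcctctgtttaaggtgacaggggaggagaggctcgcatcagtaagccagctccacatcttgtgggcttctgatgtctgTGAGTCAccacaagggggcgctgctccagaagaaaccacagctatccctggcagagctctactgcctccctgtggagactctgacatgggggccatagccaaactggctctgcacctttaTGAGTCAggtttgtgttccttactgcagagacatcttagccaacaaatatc
Gdf15 upstream, PU.1: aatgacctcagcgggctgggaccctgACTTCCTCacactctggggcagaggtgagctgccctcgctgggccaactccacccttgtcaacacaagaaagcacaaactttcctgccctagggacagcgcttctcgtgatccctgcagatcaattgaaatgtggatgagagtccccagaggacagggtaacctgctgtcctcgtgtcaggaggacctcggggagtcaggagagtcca

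The starts themselves differed in base composition, which a receptor and a ligand show. The region at the start of Acvr2b, a type II activin receptor gene, has 72.7% GC and an observed-over-expected CpG ratio of 0.746. The region at the start of Inhbc, which encodes the activin βC subunit and is typical of hepatocytes, has 57.6% GC and a ratio of 0.523, and most of it is coding exon. They are the widest start regions of at most 300 bp in their layers, chr9:119311027-119311304 and chr10:126807062-126807339, both 278 bp and both on the plus strand. No AP-1, PU.1, or palindrome letters are in them, so there are no capitals.
Acvr2b start: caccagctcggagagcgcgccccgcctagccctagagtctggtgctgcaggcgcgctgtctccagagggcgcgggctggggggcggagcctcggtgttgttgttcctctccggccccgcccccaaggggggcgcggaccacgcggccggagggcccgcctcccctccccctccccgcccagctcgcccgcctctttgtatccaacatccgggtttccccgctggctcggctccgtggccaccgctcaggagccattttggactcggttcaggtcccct
Inhbc start: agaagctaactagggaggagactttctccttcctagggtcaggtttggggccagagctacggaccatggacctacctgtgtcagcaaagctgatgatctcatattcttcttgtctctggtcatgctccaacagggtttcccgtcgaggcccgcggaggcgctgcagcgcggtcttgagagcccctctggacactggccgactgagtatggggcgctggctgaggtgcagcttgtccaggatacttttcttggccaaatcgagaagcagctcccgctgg

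A gene was said to have an open start when a region midpoint lay within 1 kb of any annotated transcript start. Of the 39 genes, 29 (74.4%) had an open start, beside 56.7% of all protein-coding genes. Receptors had an open start in 11 of 12 genes (91.7%) and Smads in 7 of 8 (87.5%), while ligands had it in 11 of 19 (57.9%), close to the share of all genes. The median number of annotated starts was 2 in ligands, 4 in receptors, and 5 in Smads, beside 2 over all protein-coding genes. With only the first base of the gene, the shares were 57.9%, 83.3%, and 87.5% in the same order, beside 53.1%. The order of receptors and Smads rests on 1 gene in each layer and turned under 5 of the 6 other settings tried, whereas both stayed above ligands under all 6. With only regions of at least 200 bp the gap was small, with 5 of 12 receptors (41.7%) against 7 of 19 ligands (36.8%). At least 1 region anywhere in the window was found for 17 of 19 ligands, every receptor, and every Smad, beside 74.4% of all protein-coding genes. The 10 genes without an open start were the ligands Tgfb2, Bmp3, Bmp4, Bmp5, Bmp10, Gdf10, Inha, and Inhbb, the receptor Bmpr1b, and Smad9.

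The number of regions ran from 0 to 21 per gene. Ligands had a median of 4 regions (range 0 to 11), receptors 4.5 (3 to 21), and Smads 6 (1 to 16), beside a median of 2 over all protein-coding genes. Gene length differs between the layers, with medians of 14.2 kb for ligands, 90.1 kb for receptors, and 62.6 kb for Smads, so the regions were also counted per 10 kb of gene and flanks. On that scale the median was 0.848 for ligands, 0.523 for receptors, and 0.875 for Smads, beside 0.470 over all protein-coding genes, and 24 of the 39 genes lay above that value. Per length, the median of receptors was thus nearest to that of all genes. The ranges overlapped widely, from 0 to 3.13 in ligands, 0.0852 to 2.14 in receptors, and 0.118 to 2.48 in Smads.

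**Figure D1:**
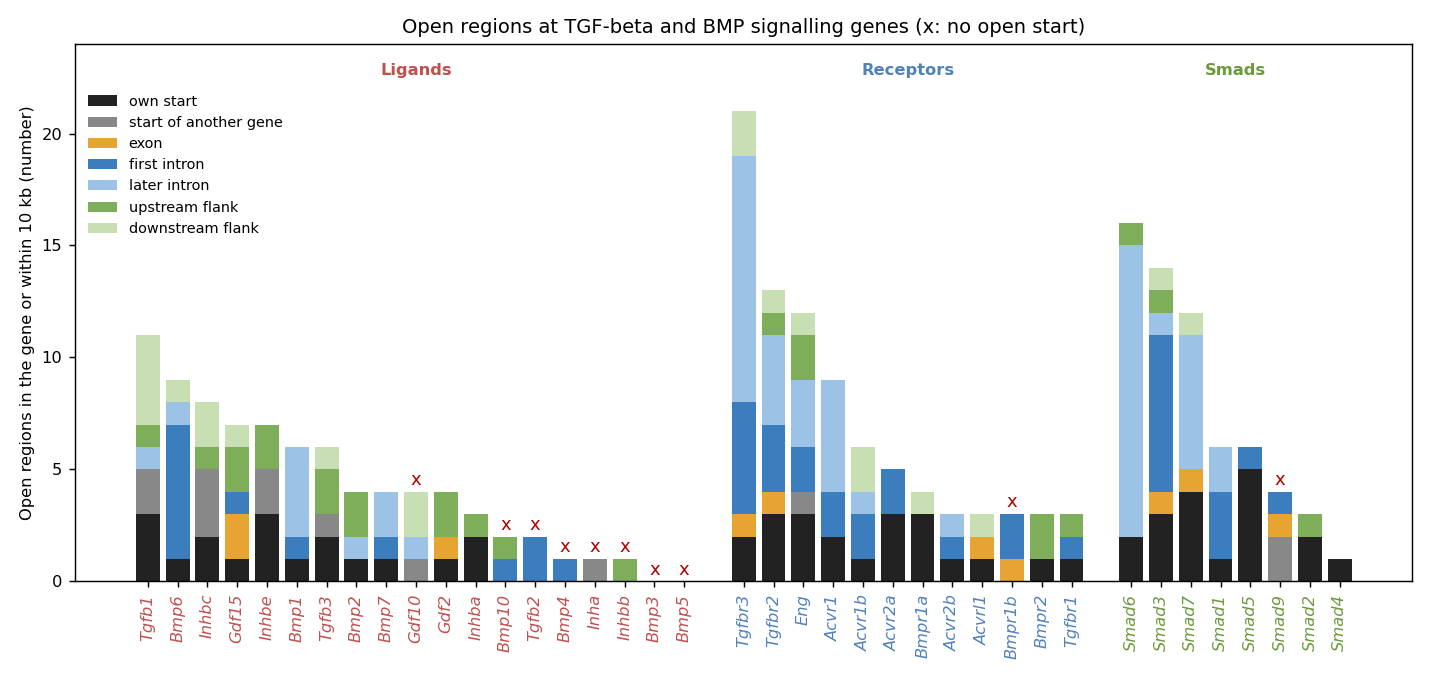
Number of open regions (vertical axis) at each ligand, receptor, and Smad gene, sorted by number within the layer. Colors give the place of each region in the gene, and a cross marks a gene with no open start. Tgfbr3 has 21 regions and Smad6 has 16, most of them in introns, while Bmp3 and Bmp5 have 0 and Smad4 has only its start.

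CpG content of the starts moved with the layers. A start was called CpG-rich when the 500 bp on either side of the first base of the gene had at least 50% GC and an observed-over-expected CpG ratio of at least 0.6, a measure added after the open starts had been counted. All 8 Smads, 10 of 12 receptors (83.3%), and 8 of 19 ligands (42.1%) were CpG-rich, beside 44.2% of all protein-coding genes. The share of ligands was thus near that of all genes. Of the CpG-rich starts of the 39 genes, 22 of 26 (84.6%) were open, beside 87.0% over all protein-coding genes with such starts. Of the CpG-poor starts, 7 of 13 (53.8%) were open, beside 32.8%. Within the CpG-rich class, 6 of 8 ligands, 9 of 10 receptors, and 7 of 8 Smads were open. The part of CpG content in the difference between layers was not tested.

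The exceptions on both sides can be named. CpG-rich but not open were Gdf10, Inhbb, Bmpr1b, and Smad9. CpG-poor but open were Gdf2, Gdf15, Inhba, Inhbc, Inhbe, Acvrl1, and Eng. Of these, Gdf2 (BMP9), Inhbc, and Inhbe are known to be made in the liver, Gdf15 encodes a stress-induced hormone, and Acvrl1 (ALK1) and Eng (endoglin) are known from endothelium, with ALK1 also present on Kupffer cells. CpG content was measured only around the first base of the gene. The start region of Acvrl1 lay 6113 bp from there and that of Gdf15 758.5 bp, so their open starts are not the places where CpG was measured.

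**Figure D2:**
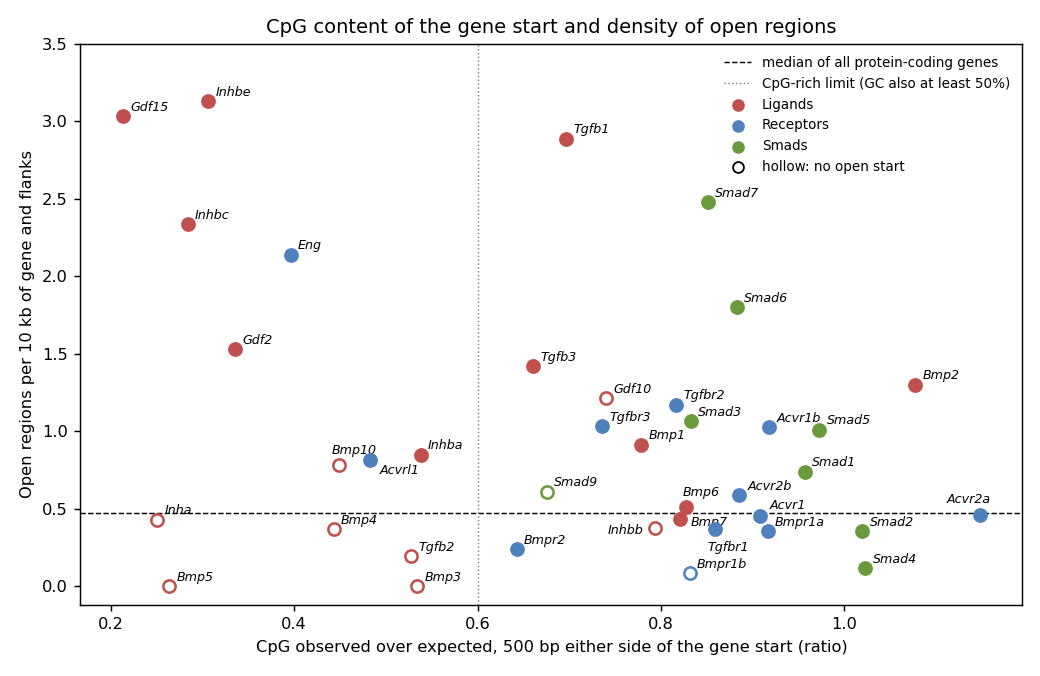
Observed-over-expected CpG ratio around the gene start (horizontal axis) and open regions per 10 kb of gene and flanks (vertical axis) for the 39 genes, filled where the start is open. The dashed line is the median of all protein-coding genes (0.470). Inhbe, Gdf15, Inhbc, and Eng combine a CpG-poor start with 2.14 to 3.13 regions per 10 kb.

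Among ligands, Tgfb1 had the most regions. Tgfb1 (ENSMUSG00000002603.9, chr7:26472021-26490096, plus strand), the TGF-β made by many immune cells and held latent in the matrix, had 11 regions, or 2.89 per 10 kb, more than 98.8% of protein-coding genes. A 224-bp region lay over its first start, with the midpoint 95.5 bp upstream, and regions 2.39 and 2.80 kb into the gene lay near a later annotated start. However, 7 of its 11 regions were nearer to a start of B9d2 or Ccdc97, the genes on either side. Tgfb3, with 6 regions, shared this, as 3 were nearer to another gene, and 2 lay at its own start. Tgfb2 had only 2 regions, both 151 bp wide, and the nearer was 1534 bp from a start.

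Bmp6 (ENSMUSG00000039004.4, chr13:38436995-38592183, plus strand), the endothelial BMP of iron control, had 9 regions. The first lay 45.5 bp from the start, and 6 lay in introns annotated as first introns, with 4 of those between 5.25 and 9.01 kb and the other pair at 62.6 and 65.5 kb. The last 2 regions of the window were nearer to Txndc5. Bmp2, another endothelial BMP, had 4 regions within 2.74 kb of its start on either side, and Bmp7 had 4, of which 3 were 151-bp regions in introns. Bmp1, which encodes a procollagen and chordin protease rather than a signaling ligand, had 6 regions, with 4 in later introns.

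The activin subunit genes Inhbc and Inhbe, which are hepatocyte genes, stand side by side on chromosome 10 and share 5 regions. Inhbe had 3.13 regions per 10 kb, the highest density of the 39 genes, and Inhbc had 2.34. However, Inhbe is only 2371 bp long, so its window of 22371 bp is mostly flank, and 2 of its 7 regions were nearer to the start of Gli1. At Inhbe 3 regions lay within 1 kb of the start, at -689, -195, and 912 bp, and at Inhbc 2 did, at -103 and 399.5 bp. Of the 8 regions of Inhbc, 6 were nearer to another gene's start, mostly that of Inhbe. The widest region of all 218, at 378 bp, lay between the pair, 3924 bp upstream of Inhbe. Gdf15 had 7 regions, all within 7.14 kb of its first base, and 3.04 per 10 kb. Inhba, which encodes the subunit of activin A, had 2 regions at its start, 173 and 601 bp in, and 1 more 3279 bp upstream.

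The 8 ligands without an open start were not all empty. Bmp3 had no region in its window, and the nearest to its start lay at -121 kb. Bmp5 (ENSMUSG00000032179.7, chr9:75623171-75748117, plus strand) also had none, although the nearest region fell just outside, with its midpoint 10359 bp upstream of the first base. Bmp4 had 1 region, 198 bp wide and 3.11 kb into the gene. Inhbb had a 151-bp region 1573 bp upstream. The 1 region of Inha lay 1261 bp upstream and only 175 bp from the start of Obsl1. The 4 regions of Gdf10 were all nearer to Gdf2, the next gene, with which it shares them. The region nearest Bmp5, chr9:75612712-75612913, is shown on the plus strand since it marks the edge of the rule. It has 44.1% GC, holds CAGAC on its minus strand, and has no AP-1, PU.1, or palindrome letters.
Bmp5 upstream: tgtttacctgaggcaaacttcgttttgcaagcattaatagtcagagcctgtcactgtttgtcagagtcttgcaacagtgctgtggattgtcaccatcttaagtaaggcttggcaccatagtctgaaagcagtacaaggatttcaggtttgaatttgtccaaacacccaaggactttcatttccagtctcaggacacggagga

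All receptors had at least 3 regions. Tgfbr3 (ENSMUSG00000029287.8, chr5:107535589-107718648, minus strand), or betaglycan, which presents TGF-β2 and inhibins, had 21, the most of the 39 genes. Its regions were spread along the gene, with 2 at the start, 16 in introns, 1 in an exon, and 2 downstream. Its window is also long, so the density was 1.03 per 10 kb. Tgfbr2, the type II TGF-β receptor, had 13 regions, with 3 within 1 kb of its start (midpoints at -740, -49.5, and 382 bp) and 7 in introns from 18.5 to 76.0 kb. Its start region of 264 bp held an AP-1 match 22 bp upstream of the first base. Tgfbr1, the type I partner, had only 3, at -1531, -89, and 25745 bp.

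Among the activin and BMP receptors, Acvr1 (ALK2) had 9 regions, of which 3 were nearer to another coding start, and Acvr1b (ALK4) had 6. Both type II activin receptors had open starts, with 3 start regions at Acvr2a, at -580, -196, and 19 bp, and 1 at Acvr2b. Bmpr1a (ALK3) had 3 start regions between 477 and 1128 bp past the first base and 1 more region 102 kb away. Bmpr1b (ALK6), the longest gene of the set, had 3 regions, each 151 bp wide, and the nearest to any of its starts lay 1657 bp off. At 0.0852 per 10 kb, it had the lowest density of the genes with a region.

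Smad6, Smad3, and Smad7 had the most regions of the Smads, with 16, 14, and 12. Of the 16 at Smad6 (ENSMUSG00000036867.5, chr9:63800953-63869866, minus strand), 13 lay in a row in later introns, from 20.8 to 66.1 kb into the gene, and 2 at the start, at -60.5 and -996 bp. This gave 1.80 regions per 10 kb, more than 91.4% of protein-coding genes. Smad7 was denser still, with 2.48 per 10 kb, and had 4 start regions and 6 in later introns from 10.2 to 25.9 kb. Smad3, the main TGF-β and activin effector, had 7 regions in introns annotated as first introns and 3 near starts, at -0.200, 13.9, and 46.3 kb, because it has 5 annotated starts.

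The other Smads had fewer regions. Smad5 had 6, of which 5 lay between -407 and 1156 bp of the first base, and Smad1 had 6, with 1 at the start (-7.5 bp) and 5 in introns from 19.4 to 52.8 kb. Smad2 had 3, and Smad4, the partner of all receptor Smads, had only the region over its start, 217 bp wide with its midpoint 90 bp upstream. Smad9, the third BMP Smad, had no open start, and 3 of its 4 regions were nearer to Rfxap. Thus the inhibitory Smads had 28 regions, while Smad4 and Smad9 had 5 together.

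**Figure D3:**
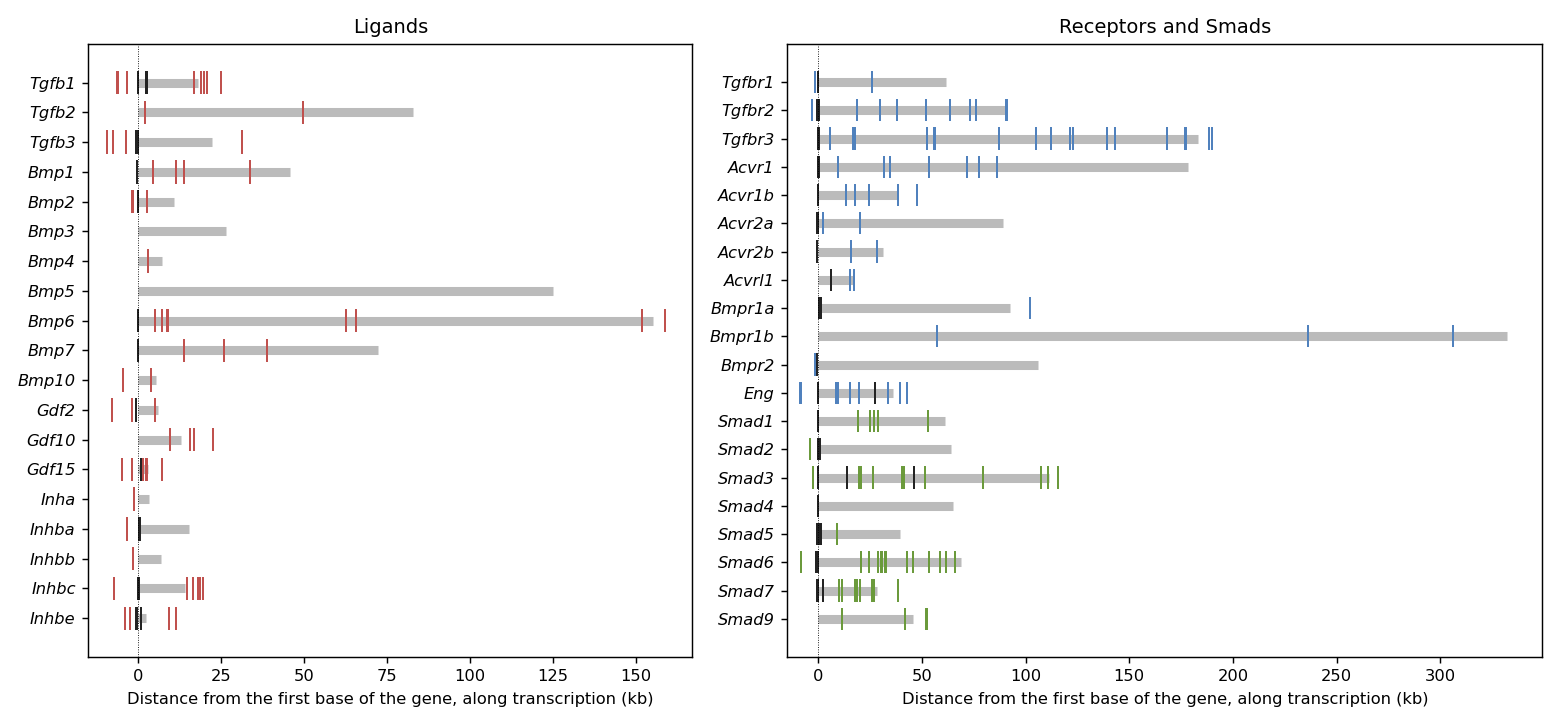
Distance of each region midpoint from the first base of its gene in kb along transcription (horizontal axis), with 1 row per gene, ligands on the left and receptors and Smads on the right. Gray bars are gene bodies, black ticks are regions within 1 kb of an annotated start, and colored ticks are all others. Regions of Smad6 form a row from 20.8 to 66.1 kb, and those of Tgfbr3 run along the whole gene.

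The route from BMP9 and BMP10 through ALK1 to Smad4, which is known to act on Kupffer cells, had regions at each of its genes. That sets it little apart, since 37 of the 39 genes and 74.4% of all protein-coding genes had at least 1 region. Gdf2 (BMP9) had 4, with 1 at the start, 481 bp upstream, and 1 that held an AP-1 match in an exon 5026 bp in. Bmp10 had 2 regions, 4395 bp upstream and 3867 bp into the gene, and no open start. Acvrl1 (ALK1, ENSMUSG00000000530.9, chr15:100958953-100975767) had 3 regions and none near its first base. The region nearest a start was 6113 bp into the gene and 502 bp from one of 10 annotated starts. The start thus counts as open only when all transcripts are used and the distance allowed is at least 502 bp. Eng, its coreceptor, had 12 regions and 2.14 per 10 kb, with 2 regions at the first start (-179 and 39.5 bp). A 354-bp region in an intron of Eng, 15.3 kb in, held both AP-1 and PU.1 letters, and 4 of the 12 regions of Eng were nearer to Ak1 or Fpgs. Bmpr2 had 3 regions, all upstream, at -459, -1085, and -1677 bp.

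By place in the gene, introns held 23 of 80 pairs of a region and a gene in ligands (28.8%), 45 of 85 in receptors (52.9%), and 34 of 62 in Smads (54.8%), beside 32.2% over all protein-coding genes. Flanks held 26 in ligands (32.5%), 14 in receptors (16.5%), and 5 in Smads (8.06%), beside 21.3%. Own starts held 18 (22.5%), 21 (24.7%), and 18 (29.0%), beside 29.7%. The start of another gene held 10 of 80 pairs in ligands (12.5%), near the 13.5% over all protein-coding genes, and 1 of 85 in receptors (1.18%) and 2 of 62 in Smads (3.23%). Short genes have more flank in their windows, and the part of gene length in these shares was not tested.

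Many regions had the same width, since 151 bp is both the commonest width and the width of 110 of the 218 regions. Wider than that were 108 (49.5%), beside 53.5% of all regions. By layer, 32 of 71 ligand regions (45.1%), 40 of 85 receptor regions (47.1%), and 36 of 62 Smad regions (58.1%) were wider. Within 1 kb of a start of any coding gene, the member's own or a neighbor's, 40 of 66 (60.6%) were wider. The share over all such regions was 71.0%. In the Smad layer 15 of 20 such regions were wider, and in the receptor layer 11 of 22. Base composition followed the starts. Median GC of these regions near any coding start was 70.8% in the receptor layer, 69.4% in Smads, and 62.4% in ligands. It was 61.7% in all regions near a coding start. Away from starts the medians were 51.7%, 54.1%, and 54.3%, beside 50.7%.

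Motif shares of the 218 regions were mostly near those of all regions on chromosomes 1 to 19, X, and Y. AP-1 was in 14 (6.42%, 95% Wilson interval 3.86% to 10.5%, which covers counting error only), beside 6.56%. The short Smad-binding site CAGAC was in 88 (40.4%), beside 39.4%. GTCTAGAC does not contain these letters, and neither of the regions with the palindrome held CAGAC. PU.1 was in 11 (5.05%), beside 3.82%. The nuclear receptor site TAGGTCA, to which REV-ERBs bind, was in 2 (0.917%), at Tgfb1 and Smad3, beside 2.47%. The SREBP site TCACNCCAC was in 0 of 218, an upper limit of 1.73%, beside 0.901%. The cyclic AMP site TGACGTCA was in 1 (0.459%), in the window of Inhbe near Gli1, beside 1.18%.

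By layer, the E-box and the BMP element had the widest spread of shares in the regions as listed. In windows of 300 bp CAGAC had the widest, with 52.1% in ligands, 60.0% in receptors, and 41.9% in Smads. There the E-box was in 7.04%, 9.41%, and 17.7%, and the BMP element in 8.45%, 12.9%, and 11.3%, in the same order. The E-box CACGTG, which clock factors and Myc bind, was in 17 regions (7.80%), beside 6.08% of all regions, and 9 of those 17 were at Smads. That is 9 of 62 Smad regions (14.5%), against 4 of 71 ligand regions (5.63%) and 4 of 85 receptor regions (4.71%). These counts have no interval, because several of the regions belong to the same gene and the motif was singled out after the shares were seen. Smad2 and Smad7 each had it in 2 start regions, including the Smad7 region that holds the palindrome, and Smad6 had it in 3 intron regions. The core of the BMP response element, GGCGCC, was in 16 regions (7.34%), beside 6.06%. Within 1 kb of a start of any coding gene, the member's own or a neighbor's, it was in 6 of 22 receptor regions (27.3%). In Smads it was in 6 of 20 (30.0%), beside 14.7% of all such regions. A start region of Bmpr1a held 3 matches. GGCGCC holds a CpG, and those 22 and 20 regions had a median GC of 70.8% and 69.4%, beside 61.7% in all regions near a coding start. The part of GC content was not tested.

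Other genes of the pathway, in lists written with earlier results of these data known, had an open start in 44 of 66 cases (66.7%). The share over all protein-coding genes was 56.7%. Targets had it in 10 of 10, and Id1, an inhibitor of differentiation induced by BMPs, had the highest density of them, 4.25 regions per 10 kb, with 9 regions. Hamp, which encodes hepcidin, had 4 regions. Smad partners and repressors were open in 9 of 10, with Ski at 17 regions, and coreceptors and receptor regulators in 9 of 10, with Nedd4l at 23. Extracellular binders and latency proteins were open in 12 of 20. Among these, Lrrc33, which holds latent TGF-β1 on macrophages, was open with 6 regions, and Lrrc32, its relative on regulatory T cells and platelets, was not, with 4. Ligands and receptors of the family outside the 39 genes were open in 5 of 17, and Acvr1c, Bmp15, Gdf1, and Gdf5 had no region at all. CpG-rich starts made up 39 of the 66, beside 44.2% of all protein-coding genes. By list they were 7 of 10 targets, 8 of 10 partners and repressors, and 9 of 10 coreceptors and receptor regulators. They were 9 of 20 binders and latency proteins and 7 of 17 in this last list. Over all protein-coding genes, 87.0% of CpG-rich starts were open. The part of CpG content in these shares was not tested.

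The sample titles label the cells KC, for Kupffer cells, while the study's term LMs also takes in macrophages derived from monocytes. This label was compared with marker genes. Of all protein-coding genes, 56.7% had an open start and 74.4% had at least 1 region. Markers of Kupffer cells and macrophages had an open start in 11 of 15 genes, among them Clec4f, Timd4, Cd5l, and C1qa. All 15 had at least 1 region. Csf1r, Marco, Vsig4, and Clec1b had no open start. Markers of other liver cells were open too, with 9 of 10 for sinusoidal endothelial cells, such as Stab2 with 14 regions, and 9 of 10 for hepatocytes, such as Alb. Stellate cell markers were open in 5 of 10, and neuron and muscle markers in 4 of 10. CpG-rich starts numbered 2 of 15 in the Kupffer cell and macrophage list, 1 of 10 in endothelial cells, and 0 of 10 in hepatocytes. They numbered 5 of 10 in stellate cells and 2 of 10 in neurons and muscle. Of all CpG-poor starts of protein-coding genes, 32.8% were open. In a pooled list the cell that a region comes from is not known. The open starts of Inhbc, Inhbe, Gdf2, Eng, and Bmp6 stand beside open starts in the hepatocyte, endothelial, and stellate cell lists alike. The part of other cells in these regions was not tested.

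**Figure D4:**
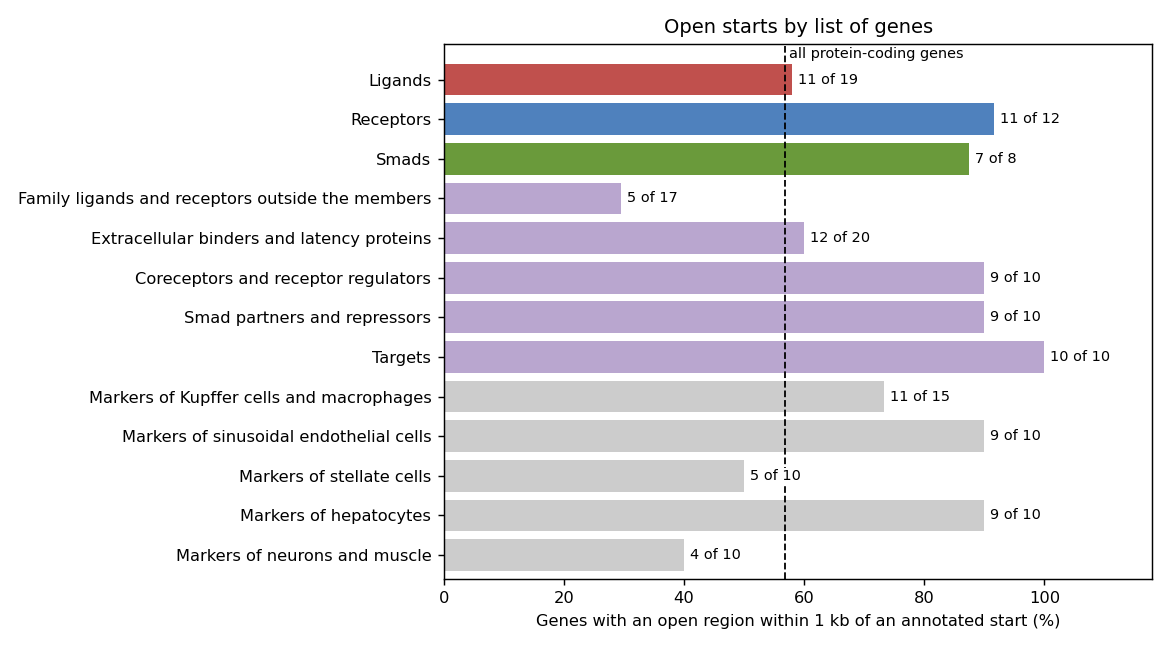
Share of genes with an open region within 1 kb of an annotated start, in percent (horizontal axis), for the 3 layers, the other pathway lists, and the marker lists, with counts beside the bars. The dashed line is the share over all protein-coding genes (56.7%). Receptors, Smads, and their partners and targets lie above the line, ligands lie on it, and family ligands and receptors outside the 39 genes lie below it.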

How the data were processed

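Fast-ATAC-Seq was performed by the authors on LMs of 18 libraries, in 6 groups of genotype and time. With a published pipeline for ATAC-Seq from the group of Anshul Kundaje, the authors trimmed adapters, aligned reads to mm9 with Bowtie, joined the reads of replicates before calling peaks, and the submitters' processing notes also name HOMER. The peak caller within that pipeline, its threshold, and tool versions are not given in the sources used here. The deposited list holds positions only, with no count, score, or signal, so no test across samples, and no statistical test of the lists, was made.

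Starts in the list count from 0 and are printed here from 1. Regions were placed on the NCBIM37 assembly, which mm9 is made from, and GENCODE vM1, and no region passed the end of a chromosome. For motifs and widths, the 69362 regions on chromosomes 1 to 19, X, and Y were used. Motifs were searched on both strands. Emr1, Sfpi1, and Mtap2 are the annotation's symbols for Adgre1, Spi1, and Map2. The genes named in full are, per layer, the 4 with the most regions, those with no region or no open start, and the BMP9 and BMP10 route. Of the regions away from starts with a motif, only the widest are printed, and a start region of Smad5 that holds an untranslated exon is not. The genes and lists were chosen with earlier results of these data known. Counting steps were tested on simulated positions. The steps ran in Python 3.11.15 (NumPy 2.4.6, SciPy 1.17.1) with figures drawn by matplotlib 3.10.9.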

Additional observations from a re-analysis of the deposited data

How the results depend on the processing

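No paired analysis was possible because the deposited regions carry no values by sample. With only regions of at least 200 bp, the counts of regions fell to 19 for ligands, 26 for receptors, 20 for Smads, and 65 in all, and open starts to 7, 5, 4, and 16, beside 7699 over all protein-coding genes (34.4%). Without flanks, ligands kept 37 regions and all 39 genes 141. When a region had to overlap the base of a start, open starts numbered 4 in ligands (21.1%), 7 in receptors (58.3%), 6 in Smads (75.0%), and 17 in all, beside 38.9% of protein-coding genes. With regions of at least 200 bp the shares were 36.8%, 41.7%, and 50.0%. Smads (87.5%) were also above receptors (83.3%) at 500 bp from a start, with only the first base of the gene, and with neighbors joined, and only at 2 kb were they below (87.5% and 100%). In those wider regions AP-1 was in 10.8% (all regions 7.51%), CAGAC in 50.8% (47.4%), and the palindrome and TGACGTCA in 0% (0.239% and 1.97%), and in windows of 300 bp CAGAC was in 52.3% (55.5%). The palindrome thus rests on regions of 198 and 169 bp. At 500 bp from a start, Acvrl1 no longer had an open start, and at 2 kb Tgfb2, Inha, Inhbb, and Bmpr1b gained it. With neighbors joined, Bmpr2 lost it because the midpoint moved. The depth of the libraries, which limits which regions were called, is unknown.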
